A study of Mus musculus with 1677 samples.

Results

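The CYP4A fatty acid hydroxylases described here are 6 mouse genes, Cyp4a10, Cyp4a14, Cyp4a12a, Cyp4a12b, Cyp4a31 and Cyp4a32, out of 24533 genes in the count table. Their rows were taken by gene name, and the family was chosen by its response to feeding, with Cyp4a14 lower in liver and higher in kidney under time-restricted feeding. The mean differences between feeding groups in liver, kidney cortex and kidney medulla are therefore the values the genes were selected on, and they are given as a description with no test. Tests are given for the daily course in these tissues and, in the other tissues, for all comparisons of members with enough counts to pass edgeR's filter. The libraries came from polyadenylated RNA of 22 tissues of wild type C57BL/6J mice. The mice were bought at 10 weeks of age and spent 2 weeks on chow in 12 h of light and 12 h of dark. All of them then ate a Western diet (45% fat, 17% sucrose) for 7 weeks, so that no group compared here was on chow. In the ad-libitum feeding group (ALF, 517 libraries) access to this diet was not limited in time, and in the time-restricted feeding group (TRF, 518 libraries) it was given for 9 h, from ZT13 to ZT22, where ZT is the number of hours after lights on. Tissues were taken at 12 clock times, 2 h apart, with up to 2 libraries for each tissue, feeding group and time. Nothing in the labels says that replicates came from separate mice, so p-values measure only the spread between these libraries. Sex is not given in the sources used here.

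CYP4A enzymes are cytochrome P450 monooxygenases of the endoplasmic reticulum that add a hydroxyl group to the omega end of fatty acids. The products are oxidised further to dicarboxylic acids, and arachidonic acid is turned into 20-HETE, a lipid mediator that acts on vessel tone and on salt transport in the kidney. Cyp4a10 and Cyp4a14 are classical target genes of PPAR alpha, the nuclear receptor that responds to fatty acids, in liver and kidney. Cyp4a12a and Cyp4a12b are known for higher expression in male mice, and Cyp4a12a encodes the main 20-HETE synthase of the mouse kidney.

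The 6 genes lie in one cluster on chromosome 4 of GRCm38 (GENCODE vM21 annotation, all protein coding), which also holds Cyp4a30b, between Cyp4a12b and Cyp4a14. In order along the chromosome they are Cyp4a12a at chr4:115299046-115332815 and Cyp4a12b at chr4:115411624-115439034 on the plus strand, and Cyp4a14 at chr4:115486200-115496142 on the minus strand. Cyp4a10 at chr4:115518264-115533649, Cyp4a31 at chr4:115563649-115579015 and Cyp4a32 at chr4:115600969-115621602 follow on the plus strand. The coding sequences are close copies in places, which bears on how reads can be told apart. Cyp4a10 shares 96.6% of its coding bases with Cyp4a31 and 97.2% with Cyp4a32, and 19.5% and 34.8% of its 50-base windows are found without change in these genes. Cyp4a12a and Cyp4a12b share 98.5% of their coding bases and 54.9% of these windows. Cyp4a14 is 75.8% to 76.8% identical to the other 5 and shares no 50-base coding window with them. As far as coding sequence goes, its counts are the least open to exchange with another of the 6 members. Cyp4a30b was not compared. How the authors' counting treated reads that match several genes is not given in the sources used here, and values of the other 5 members are uncertain to that extent.

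The 60 coding bases in which the members of each near-identical group differ most are shown. Reads within the coding sequence can be assigned only through positions that differ. The untranslated parts of the exons were not compared. Sequences are from the GENCODE transcripts, 5′ to 3′, with bases 200 to 259 of the coding sequence for Cyp4a10, Cyp4a31 and Cyp4a32 and bases 624 to 683 for the Cyp4a12 pair, and capitals mark bases that differ from the first sequence of the group.
Cyp4a10: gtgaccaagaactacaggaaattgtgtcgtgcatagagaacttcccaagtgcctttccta
Cyp4a31: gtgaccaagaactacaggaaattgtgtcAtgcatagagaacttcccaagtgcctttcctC
Cyp4a32: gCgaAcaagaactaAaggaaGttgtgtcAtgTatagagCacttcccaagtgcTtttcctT
Cyp4a12a: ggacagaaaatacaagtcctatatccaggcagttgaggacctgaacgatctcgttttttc
Cyp4a12b: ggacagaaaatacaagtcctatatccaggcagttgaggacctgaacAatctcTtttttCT
In this window Cyp4a31 differs from Cyp4a10 at 2 bases and Cyp4a32 at 9, and over the whole coding sequence 77 of 1530 positions vary among the 3 genes. The Cyp4a12 pair differs at 4 bases of its window and at 23 of 1527 in all.

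The heme-binding loop, which holds the cysteine that ligates the iron of every P450, is shown for contrast, with capitals again marking differences from Cyp4a10. It is the same in Cyp4a10, Cyp4a31 and Cyp4a32, and the same in Cyp4a12a and Cyp4a12b.
Cyp4a10: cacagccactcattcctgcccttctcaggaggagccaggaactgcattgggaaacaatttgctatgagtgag
Cyp4a14: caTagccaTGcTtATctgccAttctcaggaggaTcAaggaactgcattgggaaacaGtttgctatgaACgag
Cyp4a12a: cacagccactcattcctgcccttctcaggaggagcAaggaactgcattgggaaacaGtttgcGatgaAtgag
Of these 72 bases 12 differ between Cyp4a14 and Cyp4a10 and 4 between Cyp4a12a and Cyp4a10.

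Libraries held between 2.26 and 501 M counts each (M, 1000000), with a median of 11.3 M, and the liver, kidney, duodenum and jejunum libraries held 2.26 to 94.9 M. Levels are given as CPM, counts per 1000000 of the library's total after scaling by TMM. Some libraries resembled another tissue more than their own: 4 medulla libraries (TRF at ZT2, replicate 1, TRF at ZT10 and ZT16, replicate 2, and ALF at ZT10, replicate 2) correlated best with the mean of the cortex. The duodenum and ileum libraries of TRF at ZT4, replicate 2, each correlated best with the other of these tissues, and results that rest on them are given with and without them. Summed markers of hepatocytes had a median of 148447 CPM in ALF and 161662 CPM in TRF livers. Proximal tubule markers were nearly as high in the samples labelled medulla (medians of 80040 and 79893 CPM) as in the cortex (85841 and 92222 CPM), while loop, distal and collecting duct markers were higher in medulla (15212 and 16213 CPM) than in cortex (6698 and 6569 CPM).

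Liver and kidney held most of the CYP4A transcripts. Cyp4a14 had a median of at least 1 CPM in 3 of 22 tissues: kidney medulla (241 CPM over 48 libraries), kidney cortex (127 CPM) and liver (38.1 CPM). Cyp4a10 reached it in 5 tissues, with medians of 524 CPM in kidney medulla, 319 CPM in kidney cortex, 107 CPM in liver, 21.8 CPM in duodenum and 19.3 CPM in jejunum. Neighbours in each of these orders overlapped in their library values, except that jejunum stood above the next tissue for Cyp4a10. Cyp4a12a was found in kidney cortex (251 CPM), liver (218 CPM) and kidney medulla (92.0 CPM). Its near copy Cyp4a12b was highest in liver (60.8 CPM), followed by cortex (22.2 CPM), medulla (9.06 CPM) and, alone among the 6 genes, lung (5.05 CPM). Cyp4a31 was high in kidney medulla (572 CPM) and cortex (460 CPM) and low in liver (3.27 CPM), with no overlap between cortex and liver libraries. Cyp4a32 had the opposite distribution, with 22.5 CPM in liver, 1.93 CPM in duodenum, 1.91 CPM in stomach and 0.354 CPM in kidney medulla.

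**Figure D1:**
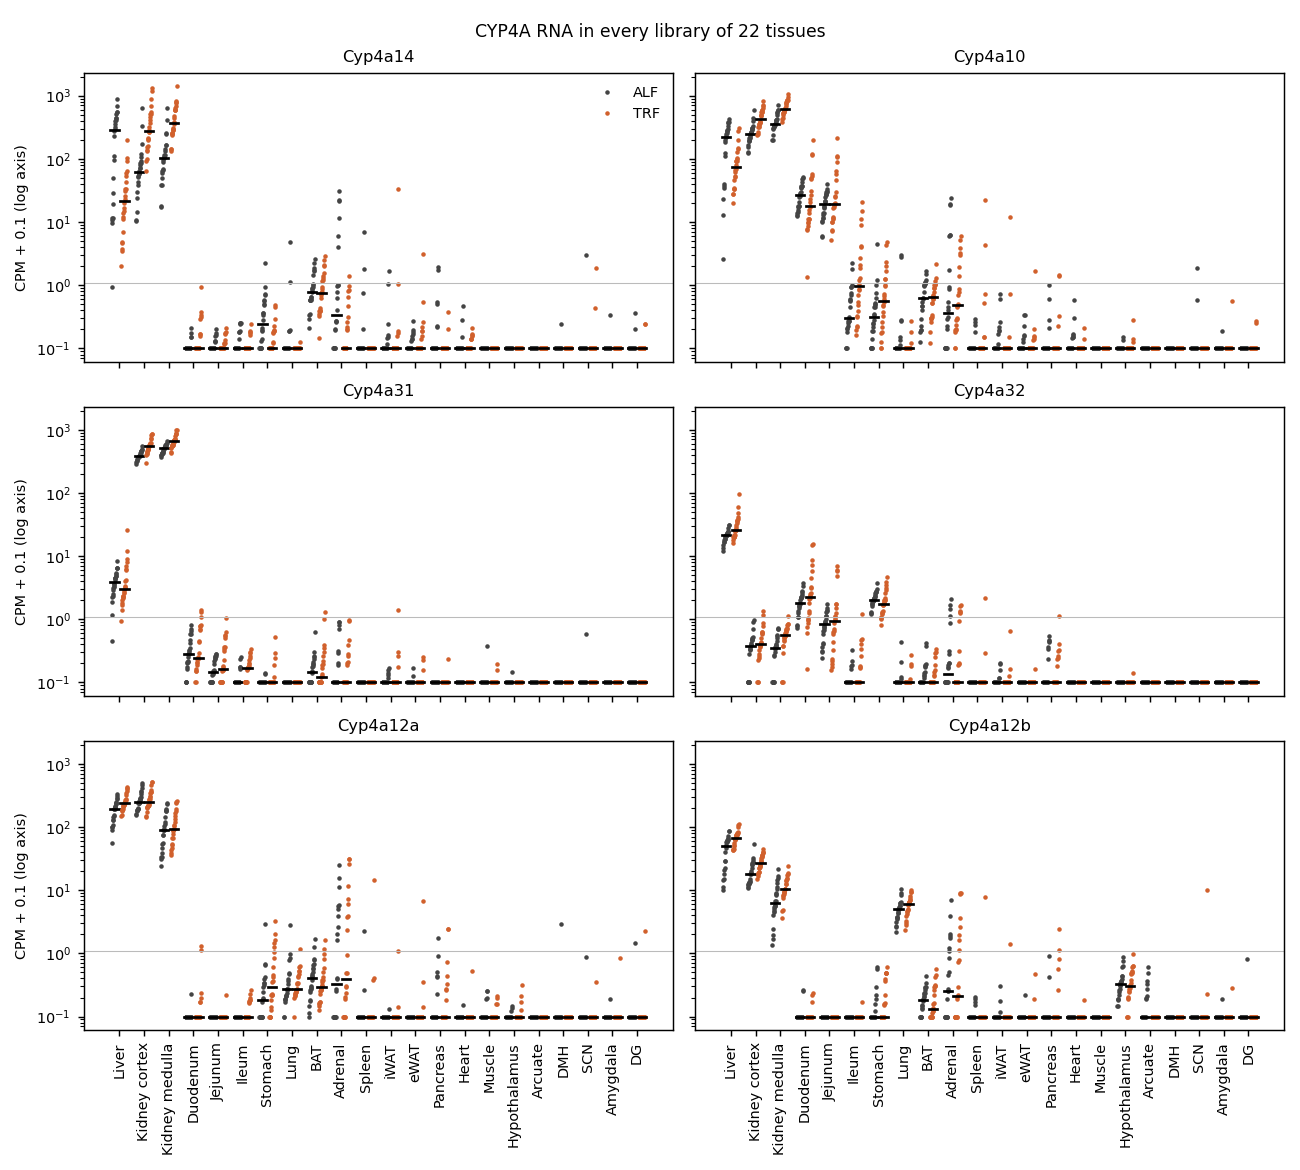
Levels of the 6 CYP4A genes by tissue, with each point a library's TMM-scaled CPM plus 0.1 on a log axis, ALF in grey, TRF in orange and black bars at the medians. Cyp4a31 is found in kidney at medians of 460 to 572 CPM and Cyp4a32 in liver at 22.5 CPM.

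Outside these tissues single libraries held CYP4A counts. In the adrenal gland, where medians were under 1 CPM, 12 of 48 libraries had at least one member above 5 CPM (up to 31.4 CPM for Cyp4a14), and these had summed hepatocyte markers of 2257 to 10845 CPM, the 12 highest of the tissue. The spleen library of TRF at ZT14, replicate 1, held 22.0 CPM of Cyp4a10, 14.1 CPM of Cyp4a12a and 7.59 CPM of Cyp4a12b beside 4293 CPM of hepatocyte markers, against a spleen median of 486 CPM. The part of liver RNA in these values was not tested. Other such libraries lay nearer the tissue median in hepatocyte markers, though some ranked high. The spleen library of ALF at ZT10, replicate 1, held 6.85 CPM of Cyp4a14 beside 1121 CPM of these markers (place 3 of 44). The iWAT library of TRF at ZT8, replicate 1, held 32.7 CPM of Cyp4a14 and 12.0 CPM of Cyp4a10. Its hepatocyte markers were at 3292 CPM, against a median of 2434 CPM (place 3 of 48). The SCN library of TRF at ZT18, replicate 2, held 9.81 CPM of Cyp4a12b beside 421 CPM of these markers, against 224 CPM (place 5 of 45). The eWAT library of TRF at ZT6, replicate 2, held 6.74 CPM of Cyp4a12a with hepatocyte markers at place 16 of 48. In ileum Cyp4a10 ran from 0 to 2.16 CPM in ALF and from 0.0647 to 20.5 CPM in TRF, with 2 and 11 of 24 libraries at or above 1 CPM. It did not pass the filter on low counts in this tissue, so that this difference was not tested. The 4 ileum libraries above 5 CPM were TRF libraries of ZT4 to ZT8, among them the one like duodenum.

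In liver the TRF group held less Cyp4a14 than the ALF group. The 24 ALF libraries ran from 0.842 to 875 CPM with a median of 290 CPM, and the 24 TRF libraries from 1.89 to 199 CPM with a median of 21.7 CPM. All 24 TRF libraries lay below the ALF median and 14 of 24 ALF libraries above the highest TRF library, and the mean of the replicates was lower in TRF at 11 of 12 clock times. The difference in mean level was -3.26 ± 0.63 on the log2 scale (TRF minus ALF ± standard error, 24 libraries each), with a range of -3.58 to -2.68 over the other ways of fitting. In bulk tissue fewer cells of a type and less RNA per cell cannot be told apart. For Cyp4a14 the 7 clock times at which both TRF livers lay below both ALF livers are set against 1 time, ZT12, at which both lay above.

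The ALF livers differed widely among themselves. Cyp4a14 was under 30 CPM in 7 ALF livers (0.842 to 28.6 CPM) and between 49.1 and 875 CPM in the other 17. Replicates of the same clock time differed by a median of 9.90-fold in ALF and 1.804-fold in TRF, and the largest gap, 81.9-fold, was at ZT0 (10.6 and 875 CPM). In ALF the spread of Cyp4a14 ranked 12th of 12356 genes by standard deviation of log2 CPM (2.64, against a median gene of 0.34). In TRF livers it ranked 46th (1.72). A wide spread was not particular to liver: it ranked 12th in ALF and 32nd in TRF of 12016 genes in cortex. In medulla it ranked 34th in ALF and 160th in TRF of 12476 genes. The low ALF livers were spread over ZT0, ZT2, ZT8, ZT12, ZT14 and ZT22.

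Cyp4a10 had a difference of the same sign in liver. It ran from 2.53 to 431 CPM in ALF (median 225 CPM) and from 19.7 to 306 CPM in TRF (median 73.6 CPM), a difference of -1.17 ± 0.39. The groups overlapped, with 22 of 24 TRF libraries below the ALF median. Cyp4a12a and Cyp4a12b lay higher in TRF livers: Cyp4a12a had medians of 194 and 241 CPM in ALF and TRF (0.47 ± 0.14) and Cyp4a12b 50.8 and 67.6 CPM (0.65 ± 0.20). Cyp4a32 had medians of 21.2 and 26.2 CPM (0.50 ± 0.14) and Cyp4a31 of 3.80 and 2.92 CPM (-0.03 ± 0.29, with values from -0.26 to 0.18 over the refits). Over all 12356 genes tested in liver the median difference was 0.00, and 20.7% of genes differed between feeding groups at an adjusted p under 0.05.

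**Figure D2:**
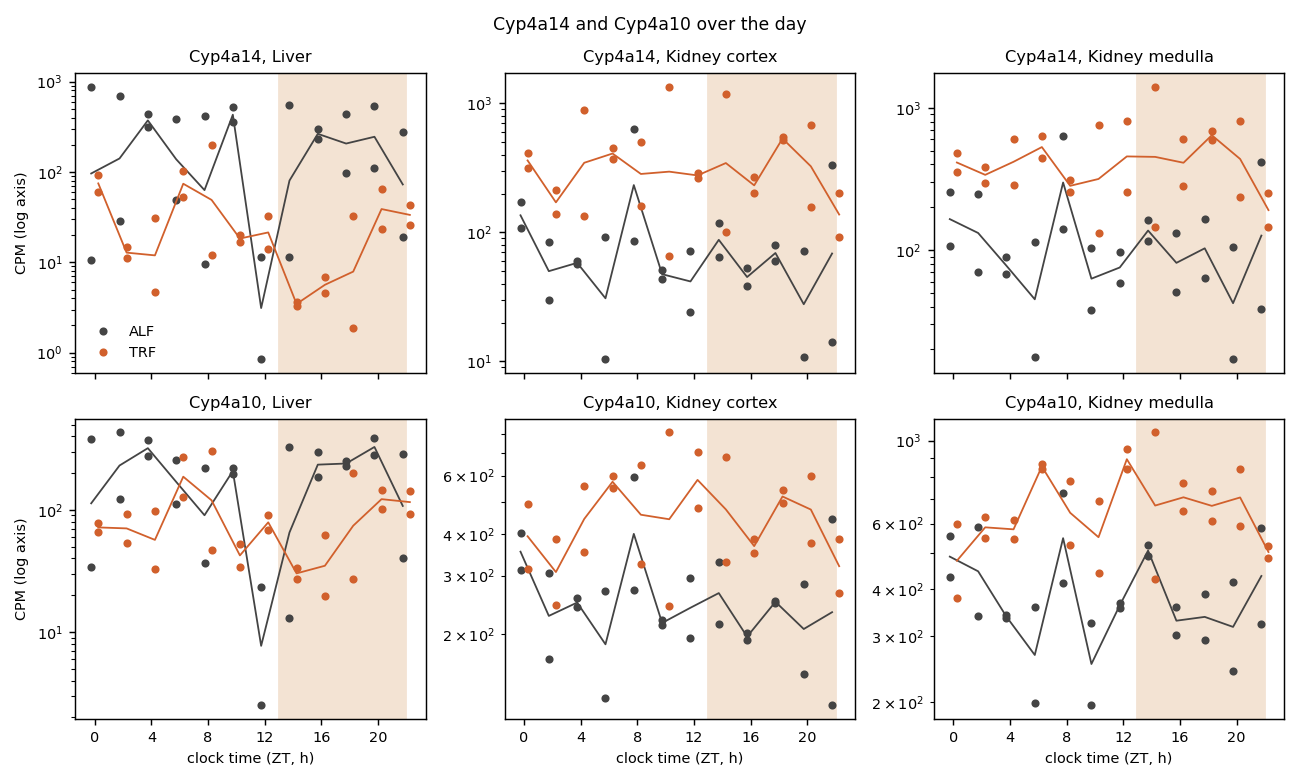
Cyp4a14 and Cyp4a10 by clock time in liver, kidney cortex and kidney medulla, with points for libraries (CPM on a log axis), lines through the geometric mean of each time, ALF in grey, TRF in orange and the TRF feeding window of ZT13 to ZT22 shaded. Cyp4a14 lies lower in TRF livers and higher in TRF kidneys, and ALF livers of the same time differ by up to 81.9-fold.

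Kidney showed the opposite direction for Cyp4a14. In kidney cortex it ran from 10.4 to 631 CPM in ALF (median 62.4 CPM) and from 65.1 to 1343 CPM in TRF (median 278 CPM). In kidney medulla the ALF libraries ran from 17.0 to 630 CPM (median 105 CPM) and the TRF libraries from 132 to 1404 CPM (median 369 CPM). In cortex and medulla all 24 TRF libraries lay above the ALF median, and 13 cortex and 17 medulla libraries of ALF lay below the lowest TRF library. The differences were 2.25 ± 0.39 in cortex and 1.95 ± 0.34 in medulla. At ZT14 to ZT22 alone they depended on the replicates kept, with 3.83 without replicate 1 and 0.88 without replicate 2 in cortex and 3.45 and 0.78 in medulla. Over all times the medulla difference was 1.91 without the 4 libraries like cortex. Without replicate 1 or without replicate 2 it was 2.48 or 1.53.

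Cyp4a10, Cyp4a31 and Cyp4a12b had higher medians in TRF kidneys too, and those of Cyp4a12a were close. Cyp4a10 ran from 122 to 593 CPM in ALF cortex (median 250 CPM) and from 243 to 810 CPM in TRF cortex (median 434 CPM), a difference of 0.83 ± 0.15, with a higher mean in TRF at 12 of 12 clock times. In medulla it had medians of 360 and 619 CPM (0.77 ± 0.12), and all 24 TRF libraries lay above the ALF median. Cyp4a31 had medians of 384 and 550 CPM in cortex (0.49 ± 0.09) and 505 and 655 CPM in medulla (0.42 ± 0.07), with 14 and 12 TRF libraries above the highest ALF library. Cyp4a12b had medians of 17.9 and 26.6 CPM in cortex (0.53 ± 0.15) and 6.07 and 10.3 CPM in medulla (0.56 ± 0.25). For Cyp4a12a the cortex medians were 251 and 248 CPM (0.06 ± 0.13) and the medulla medians 89.5 and 93.9 CPM (0.12 ± 0.26). The medulla value turned with the libraries used, at -0.35 without replicate 1 and 0.74 without replicate 2, and in cortex 12 of 24 TRF libraries lay on each side of the ALF median. Cyp4a32 had too few counts to be fitted in kidney. Of all genes tested, 11.1% differed between feeding groups in cortex and 2.93% in medulla.

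**Figure D3:**
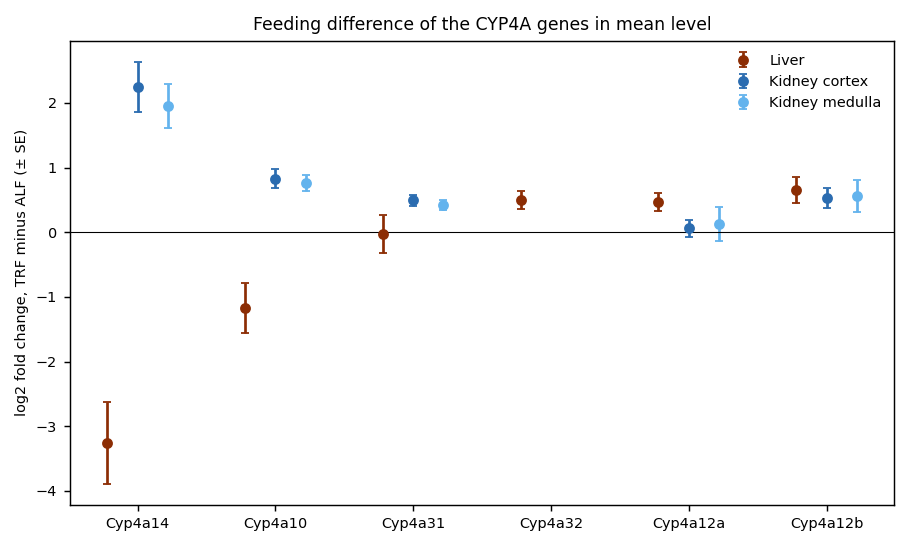
Difference between feeding groups (log2, TRF minus ALF, with standard errors) for each CYP4A gene fitted in liver, kidney cortex and kidney medulla. Cyp4a14 stands at -3.26 in liver, 2.25 in kidney cortex and 1.95 in kidney medulla, and Cyp4a12a at 0.06 in cortex.

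The make-up of the family's RNA, counted per length of exon, differed between feeding groups as well. In ALF livers Cyp4a14 made up a median of 30.6%, Cyp4a10 30.1% and Cyp4a12a 26.01% of CYP4A counts per length. In TRF livers the shares were 4.31%, 17.2% and 49.8%, so that Cyp4a12a was the most abundant member. In kidney cortex Cyp4a31 led in both groups (38.2% in ALF, 32.2% in TRF), and the share of Cyp4a14 was 5.66% in ALF and 14.4% in TRF. In medulla Cyp4a31 made up 43.2% in ALF and 33.2% in TRF, where Cyp4a10 led with 38.9%. The share of Cyp4a10 in ALF medulla was 39.1%, and that of Cyp4a14 was 8.67% in ALF and 18.5% in TRF medulla. In jejunum Cyp4a10 made up 94.9% in ALF and 95.7% in TRF. The annotated exons of Cyp4a32 hold 1536 bases, 1530 of them coding, and how this length bears on the shares was not tested.

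Daily courses in liver and kidney passed the test for few members. A rhythm of 24 h was tested by edgeR's quasi-likelihood test on a cosine and a sine term in each feeding group, with Benjamini-Hochberg adjustment over all genes of a tissue. In ALF livers 0 of 6 members passed (0 at an unadjusted p under 0.05 and 0 with DESeq2), against 25.7% of all genes. In TRF livers 2 of 6 passed, Cyp4a32 (adjusted p = 7.05e-05) and Cyp4a31 (adjusted p = 0.00324), against 49.0% of all genes. Cyp4a32 in TRF livers peaked at ZT9.00 ± 0.80 with an amplitude of 0.56 ± 0.12 log2 units: its replicates read 16.1 and 20.1 CPM at ZT0, 48.4 and 59.96 CPM at ZT6, 96.7 and 31.2 CPM at ZT8 and 20.3 and 20.2 CPM at ZT22. In ALF livers it stayed between 12.1 and 31.3 CPM, and its rhythm differed between feeding groups (adjusted p = 0.0160, 1 of 6 members, against 8.71% of all genes). Without replicate 1 the TRF rhythm of Cyp4a32 did not pass (adjusted p = 0.115). The difference between groups did not pass without the TRF library at ZT8, replicate 1 (adjusted p = 0.0551), nor without replicate 1 (0.246) or replicate 2 (0.153). Without ZT6 or ZT8 it did not pass either (0.0747 and 0.112). For Cyp4a31 the rhythm did not differ between groups by the test (adjusted p = 0.0611), but it passed with GC content offsets (0.0494), with a second harmonic (0.0346), without ZT10 (0.0376) and without ZT14 (0.0487), in a range of 0.0346 to 0.628 over the refits.

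For Cyp4a31 in TRF livers the peak was at ZT7.81 ± 1.31 with an amplitude of 0.79 ± 0.27. Its rhythm did not pass without replicate 1 (adjusted p = 0.373) or without the TRF library at ZT8, replicate 1 (0.0531), which held 26.2 CPM against 3.17 CPM in its replicate. Cyp4a14 did not pass in TRF livers (adjusted p = 0.167) or in ALF livers (0.852). In the dark part of the day, ZT14 to ZT22, its feeding difference was -4.09 ± 0.94, and at ZT0 to ZT12 it was -2.59 ± 0.82. Over the refits the first ran from -4.63 to -3.34 and the second from -3.16 to -1.30, the value without replicate 2. The difference between these windows (-1.49 ± 1.18) did not pass (adjusted p = 0.464), and it was -0.92 without replicate 1 and -3.13 without replicate 2. None of the 6 members passed that test in liver (0 at an unadjusted p under 0.05, 0 with DESeq2), while 7.68% of all genes did.

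With all libraries kept, Cyp4a31 was the only member of the 5 tested in kidney with a daily course that passed. Rhythms passed for 0 of 5 members in ALF cortex and 0 of 5 in ALF medulla (0 at an unadjusted p under 0.05 and 0 with DESeq2 in each), against 31.4% and 34% of all genes. Under TRF, Cyp4a31 passed in cortex (adjusted p = 0.0142, 1 of 5 members, against 46.9% of all genes) and in medulla (adjusted p = 0.00183, 1 of 5, against 48.3%). It peaked at ZT12.2 ± 1.2 in cortex and ZT13.2 ± 0.9 in medulla with amplitudes of 0.27 ± 0.08 and 0.30 ± 0.07. In TRF medulla its replicates read 435 and 548 CPM at ZT0, 840 and 1006 CPM at ZT12 and 573 and 512 CPM at ZT22. The cortex rhythm did not pass without replicate 1 (0.840), without ZT2 (0.0539) or without ZT12 (0.0705), and the medulla rhythm did not pass without replicate 1 (0.0690) or replicate 2 (0.0866). The rhythm of Cyp4a10 in TRF cortex did not pass with all libraries (adjusted p = 0.254) and passed without replicate 2 (0.0229). No member's rhythm differed between feeding groups in cortex or medulla (0 of 5 in each with edgeR and with DESeq2, 1 of 5 in each at an unadjusted p under 0.05, Cyp4a31), where 1.31% and 0.0401% of all genes passed. The feeding differences of the 2 windows did not differ for any member either (0 of 5 in each, 0 at an unadjusted p under 0.05, 0 with DESeq2), against 0.133% and 0.0240% of all genes. For Cyp4a14 in cortex the window difference was 0.10 ± 0.77, with values from -1.71 to 2.14 over the refits.

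In jejunum the daily course of both fitted members differed between feeding groups, and their mean levels did not pass the test. Cyp4a10 ran from 5.65 to 40.3 CPM in ALF jejunum (median 19.4 CPM) and from 5.03 to 211 CPM in TRF jejunum (median 19.3 CPM). Its mean level did not differ by the test (0.42, adjusted p = 0.161). Under TRF its replicates rose from 19.7 and 11.2 CPM at ZT0 to 87.8 and 45.4 CPM at ZT4, 106 and 110 CPM at ZT6 and 211 and 57.9 CPM at ZT8. They read 16.5 and 9.89 CPM at ZT12 and 5.03 and 7.19 CPM at ZT20. These high values fall in the light hours before the feeding window, when the TRF mice had no access to food.

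Cyp4a32 followed the same course at a lower level in jejunum, and the part of Cyp4a10 reads in its counts was not tested. Its TRF replicates read 0.883 and 0.892 CPM at ZT0, 6.82 and 5.92 CPM at ZT6 and 0.0763 and 0.0599 CPM at ZT20, while ALF libraries ran from 0.142 to 1.62 CPM. Both members were rhythmic under TRF, Cyp4a10 with an amplitude of 1.64 ± 0.21 log2 units and a peak at ZT6.66 ± 0.50 (adjusted p = 1.88e-09) and Cyp4a32 with 2.06 ± 0.20 and ZT6.15 ± 0.37 (adjusted p = 3.90e-12). Rhythms under TRF passed for 55.8% of all genes in jejunum, so 2 of 2 members stand against a high background. In ALF jejunum 1 of 2 passed, Cyp4a32 (adjusted p = 0.0223), against 14.2% of all genes, but not without replicate 1 (0.210) or replicate 2 (0.220). The rhythm differed between feeding groups for 2 of 2 members, Cyp4a10 (adjusted p = 0.0105) and Cyp4a32 (adjusted p = 9.37e-04), against 6.33% of all genes. Without replicate 1 the adjusted p of this difference was 0.516 for Cyp4a10 and 0.209 for Cyp4a32, and without replicate 2 it was 0.191 for Cyp4a10, while Cyp4a32 still passed. The rhythms under TRF themselves passed without either replicate.

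By window, the TRF group of the jejunum was higher at ZT0 to ZT12 for 2 of 2 members. Of all genes 32.4% passed there, 2471 higher and 2367 lower in TRF. Cyp4a10 differed by 0.81 ± 0.31 (adjusted p = 0.0399) and Cyp4a32 by 1.16 ± 0.29 (adjusted p = 0.00288). Neither passed without replicate 1 (0.324 and 0.125) or replicate 2 (0.221 and 0.102), and Cyp4a10 did not pass without the TRF library at ZT8, replicate 1 (0.0855). At ZT14 to ZT22 the differences were -0.14 ± 0.37 and -0.75 ± 0.47 and did not pass. The change from one window to the other passed for 1 of 2 members, Cyp4a32, with -1.91 ± 0.55 (adjusted p = 0.0323), against 6.21% of all genes, and did not pass without replicate 1 (0.375) or replicate 2 (0.287). Mean levels differed for 0 of 2 members (1 at an unadjusted p under 0.05, 0 with DESeq2), in a tissue where 45.1% of all genes did. Of 12 enterocyte markers in jejunum 6 were lower and 0 higher in TRF. Of all 14921 genes there 3332 were lower and 3392 higher, 45.1% in both directions together. Under TRF 10 of the 12 markers were rhythmic, against 55.8% of all genes. The part of these markers in the CYP4A values was not tested.

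**Figure D4:**
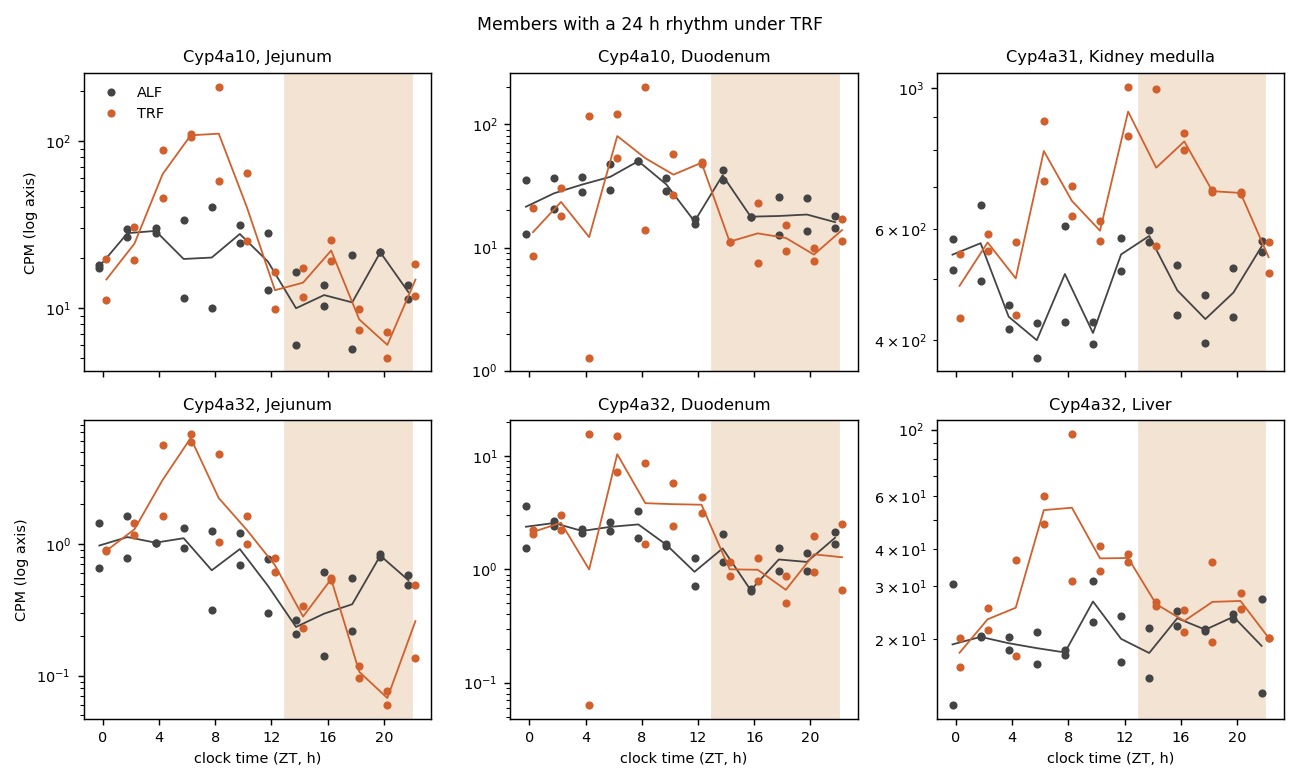
Members with a 24 h rhythm under TRF by clock time: Cyp4a10 in jejunum and duodenum, Cyp4a31 in kidney medulla, and Cyp4a32 in jejunum, duodenum and liver. Points are libraries (CPM, log axis), lines geometric means and the shading the TRF feeding window, and the jejunum TRF libraries peak at ZT6 to ZT8 with up to 211 CPM of Cyp4a10.

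In duodenum the course was alike but noisier. Cyp4a10 ran from 12.5 to 50.6 CPM in ALF (median 27.0 CPM) and from 1.27 to 202 CPM in TRF (median 17.5 CPM), with the highest TRF libraries at ZT4 to ZT8. Cyp4a32 ran from 0.641 to 3.65 CPM in ALF and from 0.0636 to 15.7 CPM in TRF. Under TRF 2 of 2 members were rhythmic, against 38.8% of all genes: Cyp4a10 peaked at ZT7.99 ± 0.97 (adjusted p = 6.12e-06) and Cyp4a32 at ZT6.75 ± 0.93 (adjusted p = 3.00e-06). Without replicate 1 neither passed (0.0623 and 0.0796). At ZT4 the 2 TRF libraries held 116 and 1.27 CPM of Cyp4a10, the second being the library that resembles ileum, and in the ileum library of that label Cyp4a10 was 20.5 CPM against 4.15 CPM in its replicate. Without the library like ileum the adjusted p were 8.08e-08 for Cyp4a10 and 7.21e-09 for Cyp4a32.

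In ALF duodenum 0 of 2 members were rhythmic (1 at an unadjusted p under 0.05, 0 with DESeq2), against 15% of all genes. The rhythm of Cyp4a32 there (adjusted p = 0.0936) passed without the library like ileum (0.0261). No member's rhythm differed between feeding groups (0 of 2, 2 at an unadjusted p under 0.05, 0 with DESeq2), where 0.00668% of all genes passed. The windows did not differ either (0 of 2, 2 at an unadjusted p under 0.05, 0 with DESeq2), against 0.949%. Mean levels differed for 0 of 2 members (1 at an unadjusted p under 0.05, 0 with DESeq2), against 40.8% of all genes. For Cyp4a32 that difference was 0.63 (adjusted p = 0.0728), and it passed without the library like ileum (0.67, adjusted p = 0.0265) and without replicate 2 (0.97, adjusted p = 0.0205), while without replicate 1 it was -0.17. At ZT0 to ZT12 alone 37.1% of all genes passed, 2613 higher and 2931 lower in TRF. Of the members 1 of 2 was higher, Cyp4a32 with 1.14 ± 0.34 (adjusted p = 0.00851). Without replicate 1 it did not pass (0.15, adjusted p = 0.892). For Cyp4a10 this difference was 0.59 ± 0.34 and did not pass (adjusted p = 0.173), and its sign depended on the replicate kept: it was -0.72 without replicate 1 and 1.07 without replicate 2, where it passed (adjusted p = 0.00905).

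Some of the highest values came from one label. The TRF library of ZT8, replicate 1, held the most Cyp4a10 of its group in liver (306 CPM, 46.9 CPM in its replicate), duodenum (202 and 13.98 CPM) and jejunum (211 and 57.9 CPM). It also held the most Cyp4a14 (199 and 12.1 CPM), Cyp4a31 and Cyp4a32 in TRF liver and the most Cyp4a32 in TRF stomach (4.53 and 1.68 CPM). The iWAT library of this label held 32.7 CPM of Cyp4a14. In kidney the label was not the highest, at place 7 of 24 for Cyp4a14 in cortex and 14 of 24 in medulla. Its places in cortex and medulla were 4 and 7 for Cyp4a10 and 5 and 8 for Cyp4a31. They were 15 and 16 for Cyp4a12a and 7 and 16 for Cyp4a12b. Without the TRF library of ZT8, replicate 1, the rhythms of Cyp4a10 and Cyp4a32 in TRF jejunum still passed (adjusted p = 2.65e-08 and 3.29e-11), and the liver difference of Cyp4a14 was -3.54.

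Elsewhere single members were fitted in stomach, lung and brown fat. In stomach Cyp4a32 ran from 1.102 to 3.68 CPM in ALF and from 0.717 to 4.53 CPM in TRF. It was rhythmic under TRF (1 of 1, adjusted p = 0.00907, peak at ZT9.84 ± 1.07, against 21.4% of all genes), but not without replicate 1 (0.135) or replicate 2 (0.252). Its mean level did not pass the test (-0.13, adjusted p = 0.566, 0 of 1 with edgeR, at an unadjusted p under 0.05 and with DESeq2, against 24.8%). At ZT14 to ZT22 alone 28.3% of all genes passed, 1809 lower and 2384 higher in TRF. Cyp4a32 was lower in this window (1 of 1, -0.64 ± 0.22, adjusted p = 0.0289). That call was lost without replicate 1 (0.189) or replicate 2 (0.334), with GC content offsets (0.0852) and without the boundary times (0.102), and the windows did not differ by the test (adjusted p = 0.105). In lung Cyp4a12b ran from 2.07 to 10.2 CPM in ALF and from 2.22 to 9.84 CPM in TRF (23 libraries each) and did not pass in mean level (0.21, adjusted p = 0.350, 0 of 1 by each tool and unadjusted, against 2.37%). It was rhythmic in ALF lung (1 of 1, adjusted p = 8.56e-04, peak at ZT20.7 ± 0.8, amplitude 0.63 ± 0.13, against 42.6% of all genes), but not without replicate 2 (0.0649). In brown fat Cyp4a14 had medians of 0.696 and 0.663 CPM and did not pass (0.08, adjusted p = 0.924, 0 of 1 by each tool and unadjusted), and 0% of all genes passed there with edgeR.

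Library names in 12 tissues end in codes, and 48 codes recur in liver, kidney cortex and kidney medulla, each with 1 feeding group and clock time. The labels do not say what a code stands for. Libraries with the same code in cortex and medulla went together for Cyp4a14: over 24 ALF codes Pearson's r was 0.93 and Spearman's rho 0.89, and over 24 TRF codes 0.86 and 0.84. The permutation p was 1e-05 for each, the smallest that 100000 resamples can give, with adjusted values of 6.67e-05 for r and 8.57e-05 for rho over 60 relations computed. Without the 2 codes farthest from the median r was 0.90 and 0.83. The medulla libraries that correlated best with the cortex were kept, and proximal tubule markers were nearly as high in medulla as in cortex. The part of tissue common to both samples in these values was not tested. Within a clock time the replicates differed in the same direction in both kidney parts at 12 of 12 times in ALF and 11 of 12 in TRF (exact sign-flip p = 4.88e-04 and 0.00342, adjusted 0.0176 and 0.0410).

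Liver and kidney did not go together for Cyp4a14. Between liver and cortex r was -0.19 in ALF and -0.01 in TRF, with rho of -0.07 and 0.04 and adjusted permutation p of 0.472 and 0.953 for r and 0.800 and 0.884 for rho. Without the 2 farthest codes r was -0.20 and -0.02. Between liver and medulla r was -0.29 and -0.15 (adjusted permutation p of 0.262 and 0.548). For Cyp4a12b, liver and cortex gave r of 0.54 in ALF (adjusted p = 0.0147) and -0.15 in TRF (0.548). For Cyp4a32, liver and duodenum gave 0.72 in TRF (2.57e-04) and -0.08 in ALF (0.764, 23 codes). Within a clock time the exact sign-flip test did not pass for either positive value (adjusted 0.0738 and 0.170). Some of the 60 relations computed are not reported here. A p that misses the threshold does not show that the tissues are unrelated, and at 24 codes a weak relation cannot be detected.

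**Figure D5:**
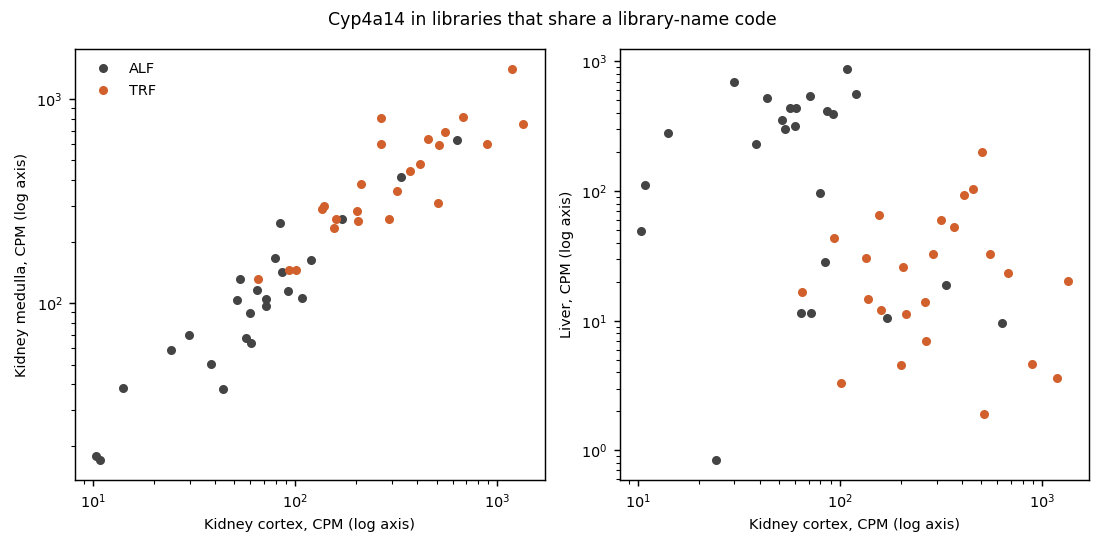
Cyp4a14 in libraries with the same code: kidney medulla against kidney cortex, and liver against kidney cortex (CPM, log axes, 24 ALF and 24 TRF codes). The 2 kidney parts rise together (r of 0.93 and 0.86), and cortex and liver do not (-0.19 and -0.01).

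Within a tissue Cyp4a10 followed Cyp4a14 from library to library. In liver r was 0.94 in ALF and 0.83 in TRF (rho 0.85 and 0.82, adjusted permutation p of 6.67e-05 for both r), in cortex 0.97 and 0.87, and in medulla 0.91 and 0.70. Without the 2 farthest libraries these were 0.91 and 0.78 in liver, 0.95 and 0.83 in cortex and 0.89 and 0.58 in medulla. Between Cyp4a12b and Cyp4a14 r was positive in cortex (0.58 in ALF and 0.79 in TRF, adjusted p of 0.00739 and 1.00e-04, rho 0.46 and 0.79 with adjusted p of 0.0521 and 8.57e-05, and r of 0.46 and 0.73 without the 2 farthest libraries) and negative in ALF livers (-0.52, adjusted p = 0.0206, rho -0.65, and r of -0.65 without the 2 farthest). It did not pass in TRF livers (0.11, adjusted p = 0.672) or in ALF and TRF medulla (0.25 and 0.33, adjusted p of 0.350 and 0.197). Between Cyp4a12a and Cyp4a14 r was negative in TRF cortex (-0.61, adjusted p = 0.00397, rho -0.65) and TRF medulla (-0.52, adjusted p = 0.0195, rho -0.54), and -0.53 and -0.40 without the 2 farthest libraries. It did not pass in ALF cortex (-0.09, adjusted p = 0.721), ALF medulla (-0.16, 0.539) or TRF livers (0.24, 0.350). In ALF livers r was -0.44 (adjusted p = 0.0583), where rho of -0.59 passed (adjusted p = 0.00742). Whether these values differ between feeding groups or tissues was not tested. These are correlations of libraries within a feeding group, and the paired genes share a library's scaling.

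Of the target genes of PPAR alpha outside the family, those that passed the test were lower in TRF livers and higher in TRF kidneys. The list was chosen with results of these libraries known and is no independent evidence of its direction. In liver 0 of 43 tested members were higher and 23 lower in TRF, with a median difference of -0.29 against 0.00 over all genes, of which 20.7% passed in either direction. The 4 with the smallest p were Aldh3a2, a fatty aldehyde dehydrogenase that acts on the products of omega hydroxylation (-1.30 ± 0.18, adjusted p = 1.93e-06), the fatty acid transporter Cd36 (-1.58 ± 0.22), the peroxisomal thiolase Acaa1b (-1.32 ± 0.20) and the acyl-CoA thioesterase Acot3 (-3.51 ± 0.53). In kidney cortex 29 of 40 were higher and 0 lower (median 0.28, 0.00 over all genes, of which 11.1% passed), led by the carnitine carrier Slc25a20 (0.38 ± 0.05, adjusted p = 8.30e-07), Eci1 (0.37), the acyl-CoA dehydrogenase Acadm (0.40) and Cpt2 (0.32). In medulla 22 of 39 were higher and 0 lower (median 0.21, 0.00 over all genes, of which 2.93% passed), with Acadm (0.65 ± 0.07, adjusted p = 3.02e-07), Ehhadh (0.71 ± 0.10), Slc25a20 (0.37) and Angptl4, an inhibitor of lipoprotein lipase (1.03 ± 0.16).

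Genes that carry the omega pathway further were also followed. This list shares genes with that of PPAR alpha, Aldh3a2 and Ehhadh among them, and was likewise chosen with results known. The counts stand against 20.7% of all genes passing in liver, 11.1% in cortex and 2.93% in medulla. Of the 22 tested in liver 0 were higher and 12 lower in TRF (median -0.31), among them Aldh3a2, the peroxisomal transporter Abcd2 (-2.40 ± 0.34) and the alcohol dehydrogenase Adh1 (-0.49 ± 0.09). Of 18 tested in cortex 6 were higher and 1 lower, with Aldh9a1 (0.23 ± 0.03), Ehhadh, the peroxisomal bifunctional enzyme (0.64 ± 0.10), and Acsm3 (0.65 ± 0.13) among them. In medulla 4 of 18 were higher and 0 lower. Whether the counts differ between tissues was not tested. Of other CYP4 genes, 2 of 8 were higher in liver (Cyp4v3, 0.26 ± 0.07, and Cyp4f16, 0.49 ± 0.15) and 1 of 6 lower in cortex (Cyp4b1, -0.21 ± 0.05), with 0 of 6 in medulla, which is near the share of all genes in liver and cortex. Among P450 enzymes and hydrolases of the eicosanoid pathway, Cyp2c44, an arachidonic acid epoxygenase, fell in cortex (-0.68 ± 0.11) and medulla (-0.65 ± 0.12), the 1 called member of 11 and of 12. In liver Cyp2j5 (-0.25 ± 0.05), Ephx1 (-0.46 ± 0.11) and Cyp2j9 (-0.43 ± 0.12) fell and Pla2g4a rose (0.46 ± 0.14), 4 of 8 tested.

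The receptor itself did not pass the test at the level of RNA. Ppara, named here after its values were seen, differed by -0.18 in liver (adjusted p = 0.189), -0.04 in cortex (0.783) and -0.14 in medulla (0.494). The counts that follow stand against the same shares of all genes (20.7%, 11.1% and 2.93%). Of 28 regulators tested in liver, 3 were higher and 6 lower in TRF, with Pparg (-1.56 ± 0.19), Cidea (-3.25 ± 0.45), Ppard (0.44 ± 0.10) and Nr1d2 (-0.42 ± 0.11) having the smallest p. Of 12 adipocyte markers 5 were tested in liver, and 3 of these were lower in TRF (Cfd, Cidec and Pparg, named after their values were seen) and 0 higher. Hepatocyte markers included 5 higher and 3 lower of 13. In cortex 2 of 25 regulators were higher (Lpin1, 0.22 ± 0.07, and Ppard, 0.45 ± 0.15), and in medulla 0 of 26 passed. Proximal tubule markers held 3 higher and 4 lower of 18 in cortex and 0 of 18 in medulla, and loop, distal and collecting duct markers 5 lower of 17 in cortex and 1 lower of 17 in medulla. Their part in the CYP4A values was not tested.

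In the gut many genes of the PPAR alpha list had a daily course under TRF. In jejunum 33 of 42 genes were rhythmic under TRF, among them Eci2 (adjusted p = 1.41e-13), Acaa1a (5.26e-12) and Ech1 (1.06e-08), in a tissue where 55.8% of all genes passed. In duodenum 28 of 41 passed, against 38.8%. In mean level 13 were higher and 3 lower of 42 in jejunum, where 45.1% of all genes passed, and 3 higher and 8 lower of 41 in duodenum, where 40.8% did.

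Genes among those most like Cyp4a14 over the 48 libraries of a tissue, by Pearson's r of log2 CPM, are given as a description. In cortex, beside Cyp4a10 (0.96) and Cyp4a31 (0.82), they were Adtrp (0.84), Retsat (0.82), Ehhadh (0.80) and Acadm (0.78). In medulla Retsat (0.79), Ehhadh (0.76), Acadm (0.76) and Maob (0.73) followed Cyp4a10 (0.91). In liver Crat (0.85), Lamb3 (0.84), Acot2 (0.83), Serpinb1a (0.81) and Apoa4 (0.81) followed Cyp4a10 (0.90). The libraries of a tissue include both feeding groups, so these values hold the feeding difference too. Cyp4a12a kept other company: Ces3a (0.78), Slco1a1 (0.78), 1300017J02Rik (0.77), F11 (0.75) and Cd4 (0.74) after Cyp4a12b (0.88) in liver, Hsd11b1 (0.84), Synpr (0.82), Gusb (0.82), Srd5a2 (0.81) and Slco1a1 (0.75) in cortex, and Odc1 (0.83), Ugt2b38 (0.82), Slc51a (0.80), Slco1a1 (0.80) and Mkrn1 (0.80) in medulla. Its r with Cyp4a14 was -0.38 in liver, -0.22 in cortex and -0.15 in medulla. Over the 44 means of tissue and feeding group Cyp4a14 was most like Ugt3a1 (0.98), Aldh8a1 (0.98), Slc22a30 (0.97), BC024386 (0.97) and Glyat (0.97), and Cyp4a12a most like Slco1a1, F13b, Hgd, BC024386 and Spp2 (0.99 to 1.00).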

How the data were processed

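The deposited table holds expected counts per gene and library made by the authors, 24537 rows by gene symbol and 1035 library columns (1677 runs in the labels). Per the submitters' processing notes the tools were CASAVA 1.8, FastQC 0.11.8, STAR 2.5.3a and HOMER 4.10 with GRCm38 (mm10). Of the values 29.62% are not whole and were rounded before fitting. The 4 rows whose names, converted to dates, occur more than once were left out. Each tissue was fitted alone with edgeR 4.0.16 in R 4.3.3 (filterByExpr, TMM, quasi-likelihood test). Models held clock time as a factor plus feeding, feeding in ZT0 to ZT12 and in ZT14 to ZT22, or a cosine and sine of 24 h in each feeding group. P-values were adjusted by Benjamini-Hochberg over every gene fitted in that tissue, and calls were made at 0.05. Amplitudes and peaks came from limma 3.58.1 on log2 CPM with their standard errors. The scripts were tested on simulated data.

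The members and gene lists were chosen with earlier results of these data known. Named genes are all members with a mean of at least 1 CPM in a tissue, up to 4 of each list with the smallest p, and the 5 genes most like Cyp4a14 and Cyp4a12a; Ppara is outside that rule, and some genes that meet it are not reported here. Libraries with the same replicate number in both feeding groups did not deviate together throughout, so the number was not used as a pairing. Alternatives were DESeq2 1.42.0, its size factors, genes of low count kept, the replicate block, each replicate or clock time left out, GC content offsets, removal of libraries like another tissue, a second harmonic of 12 h, boundary times left out, CPM without TMM and unrounded counts. Leaving out TRF ZT8 replicate 1 and summing near-identical members were added after seeing the data. Totals of 2.26 to 501 M (M, 1000000 counts) per library set the counting precision.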

Additional observations from a re-analysis of the deposited data

Results flagged for a closer look

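The daily course differed between feeding groups, by the test of the difference itself, for 3 gene and tissue pairs of the family. In jejunum the adjusted p was 0.0105 for Cyp4a10 and 9.37e-04 for Cyp4a32, and in liver it was 0.0160 for Cyp4a32. In jejunum the feeding difference of Cyp4a32 at ZT14 to ZT22 minus that at ZT0 to ZT12 was -1.91 on the log2 scale, so that TRF libraries were higher in the light hours and not in the dark hours. The liver result did not pass without the TRF library at ZT8, replicate 1, nor without either replicate number. In jejunum the rhythm difference of Cyp4a10 and the window difference of Cyp4a32 did not pass without replicate 1 or without replicate 2, and the rhythm difference of Cyp4a32 did not pass without replicate 1.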

How the results depend on the processing

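Of 296 refits of the results that answer a comparison, 20 lost the call. The other 276 kept their direction and, where tested, their side of the threshold. These 296 include the untested differences in mean level of Cyp4a14 and Cyp4a10 in liver, cortex and medulla. Each of those had 20 to 22 refits and no call to lose. All 20 losses came from leaving out libraries or clock times. Leaving out replicate 1 lost 10 calls. The 8 results without a loss there were those untested differences and the rhythms of Cyp4a10 and Cyp4a32 in TRF jejunum. Leaving out replicate 2 lost 4 calls. Of 2522 refits of the other values, 2491 kept their side of the threshold or stayed within the spread, 15 lost a call, 9 gained one and 7 moved by more than 1 standard deviation. Those 7 were untested feeding differences at ZT14 to ZT22 in kidney, without replicate 1 or replicate 2. Of the 15 losses, 1 came with GC content offsets and 1 without the boundary times (0.0852 and 0.102, both for Cyp4a32 in stomach at ZT14 to ZT22), and the rest without libraries. The sign turned in at least 1 refit for 30 of these 85 log2 differences, none of which was a call, among them Cyp4a12a in medulla (-0.35 to 0.74) and Cyp4a10 in duodenum at ZT0 to ZT12 (-0.72 to 1.07). Refits without a replicate number hold fewer libraries per time, and the cause of the lost calls and turned signs was not tested. Refits left out 1 replicate number or TRF ZT8 replicate 1 and, in liver and kidney, also each clock time; clock times were not left out in the gut. Over these the adjusted p of the TRF rhythm ran from 6.65e-05 to 0.0623 (Cyp4a10, duodenum), 3.82e-06 to 0.0796 (Cyp4a32, duodenum), 0.00528 to 0.840 (Cyp4a31, cortex), 2.12e-04 to 0.0866 (Cyp4a31, medulla), 4.84e-04 to 0.373 (Cyp4a31, liver) and 5.88e-05 to 0.115 (Cyp4a32, liver). For the difference in rhythm it ran from 0.0347 to 0.516 (Cyp4a10, jejunum), 0.00237 to 0.209 (Cyp4a32, jejunum) and 0.00753 to 0.246 (Cyp4a32, liver), and the window difference of Cyp4a32 in jejunum from -2.21 to -1.40. Without TRF ZT8 replicate 1 alone the liver values were 0.0551 (Cyp4a32, difference) and 0.0531 (Cyp4a31, TRF rhythm).

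With the replicate block, the replicate number as a further term, Cyp4a14 differed by -3.32 in liver, 2.23 in cortex and 1.92 in medulla, and the block changed no call. Over all refits these differences ran from -3.58 to -2.68, 1.90 to 2.62 and 1.53 to 2.48. With the counts of Cyp4a10, Cyp4a31 and Cyp4a32 summed, the rhythm under TRF passed in jejunum (adjusted p = 1.28e-09), duodenum (5.26e-06) and medulla (0.0338) and not in cortex (0.0764) or liver (0.452). The rhythm of this sum differed between feeding groups in jejunum (adjusted p = 0.00905) and not in liver (0.565). Its window difference in jejunum did not pass (0.233). Cyp4a32 had low medians in the gut (1.93 CPM in duodenum and 0.772 CPM in jejunum), and how far depth limits its values was not tested.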
